A study of Mus musculus with 2 samples.

Results

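Oxidative phosphorylation genes of the nucleus were followed through every cell type of the mouse incisor. The set was chosen by gene symbol alone, from the stems Atp5, Cox4 to Cox8, Ndufa, Ndufb, Ndufc, Ndufs, Ndufv, Uqcr and Sdha to Sdhd, and the rule uses no measured value. Of 97 symbols with these stems, 8 Ndufaf genes and 4 Sdhaf genes were left out, since both families encode assembly factors that are not part of the finished complexes. This left 85 of the 31053 genes in the matrix: 38 of complex I, 4 of complex II, 8 of complex III, 18 of complex IV and 17 of complex V. The symbol Atp5o stood under 2 identifiers, 1 of which (ENSMUSG00000116933) had no UMI in any analysed cell while the other (ENSMUSG00000022956) had 8972. In all, 81 members had at least 30 UMIs in the analysed cells, 77 had at least 1000, and Cox7b2, Cox8c and Cox8b had 5, 2 and 1.

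Complexes I to IV form the respiratory chain of the inner mitochondrial membrane: complex I takes electrons from NADH and complex II from succinate, complex III passes them to cytochrome c, and complex IV hands them to oxygen. Complex V, the ATP synthase, uses the proton gradient that complexes I, III and IV build. Most subunits are encoded in the nucleus and made in the cytosol, whereas a few core subunits of every complex except complex II are encoded by mitochondrial DNA. In a growing tooth the demand differs among cells, from dividing precursors to ameloblasts and odontoblasts, which secrete the matrix of enamel and dentin, and the stratum intermedium, a layer next to the ameloblasts that is known for its alkaline phosphatase. Symbols follow older assignments: the product of Ndufa4 is now counted with complex IV, Cox7a2l acts in the assembly of supercomplexes, and Atp5s (factor B) is an accessory factor of complex V.

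The tissue came from lower incisors of untreated 4-week-old C57BL/6 mice and was labelled dental mesenchyme, although the pulp and its epithelium were dissected as 1 piece and digested with collagenase, after the proximal end had been cut off. Single cells were barcoded with the 10x Genomics 3′ method, which counts 1 unique molecular identifier (UMI) for each captured transcript end, so levels of different genes can be set side by side without division by length. The 2 sample titles differ only in their lane number and were read as lanes of 1 library, which the labels do not state. No list linked barcodes to titles, and the number of animals was not given. The matrix was therefore treated as 1 sample with no replicate. No test between conditions was possible, and every interval below (95%) covers counting error only.

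A limit of 500 genes and of 20% mitochondrial UMIs kept 4775 barcodes, and 4533 cells (median 5790 UMIs) remained after removal of probable doublets and of cells outside the erythroid cluster with over 5% haemoglobin. Clustering left out the members, the mitochondrial genes and every gene list used below except the cell type markers. None of the genes left out defined a cluster. The cell type markers were kept, so they are not independent of the clusters that they name. The cells fell into 2198 mesenchymal, 1398 immune, 768 epithelial, 95 erythroid and 74 endothelial cells in 26 clusters, which are named after the gene that led them. Against the tissue label, mesenchymal cells made up 48.5%. The 9 mesenchymal markers summed to 15930 counts per 1000000 UMIs (CPM) in mesenchymal cells, 359.4 in epithelial cells and 233.2 in immune cells. Droplets of 1 to 20 UMIs, which hold free RNA, carried the members at 19220 CPM, so a low level in any cell type can include free RNA.

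Complex II carries the sharpest contrast below, between Sdhb and the other subunits. Promoter sequences of Sdha, Sdhb and Sdhd are shown for that reason, while that of Sdhc was not in the RefSeq promoter table. Sdhb lies on chromosome 4 (chr4:140961203-140979193, plus strand, mm10) and encodes the iron-sulphur subunit. Sdha (chr13:74322254-74350280, minus strand) encodes the flavoprotein, and Sdhd (chr9:50596357-50603812, minus strand) encodes 1 of the 2 membrane anchors, the other being Sdhc (chr1:171127165-171150603, minus strand). The 182 bases up to the base before the annotated Sdhb gene (RefSeq, GRCm38.p6, chr4:140961021-140961202, plus strand) held neither the NRF1 core (GCGC on both sides of any 2 bases) nor the ETS core bound by GABP (CCGGAAG), which are both known from promoters of respiratory genes. Sequence around each match in the window from 250 bases before to 50 bases after the RefSeq start follows, 5′ to 3′ on the gene's strand, with the match to either strand in capitals.
Sdhb, upstream: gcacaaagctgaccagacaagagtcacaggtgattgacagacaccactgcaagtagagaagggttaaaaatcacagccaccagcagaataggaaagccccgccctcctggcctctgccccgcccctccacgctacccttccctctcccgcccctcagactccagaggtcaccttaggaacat
Sdhb, ETS match (chr4:140961266-140961294): gctcggagaaaCCGGAAGcggccttccac
Sdhd, NRF1 match (chr9:50603909-50603938): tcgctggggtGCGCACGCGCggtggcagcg
Sdhd, ETS match (chr9:50603878-50603906): ccgtctcctgcCTTCCGGttcacgcttca
Sdha, NRF1 match (chr13:74350319-74350348): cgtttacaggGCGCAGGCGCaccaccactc
Sdha, NRF1 match (chr13:74350276-74350305): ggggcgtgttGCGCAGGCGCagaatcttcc
Sdha, NRF1 match (chr13:74350231-74350260): gcgactcggtGCGCAAGCGCagtctgtcgc
The Sdhb window thus held 1 ETS match and 0 NRF1 matches, the Sdha window 0 and 3, and the Sdhd window 1 of each. Such a match is a run of letters and not a shown binding site.

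Among all members, 68 were matched to the RefSeq promoter table by identifier or symbol (67 genes). An NRF1 match stood in 19 of 67 promoters (28.4%), against 7.0% of 27025 promoters of the same window. The ETS core was found in 16 (23.9%, against 9.9%), the YY1 core (GCCATNTT) in 16 (23.9%, against 7.0%) and the hypoxia core (ACGTG) in 16 (23.9%, against 21.8%). Of the 16 promoters with the YY1 core, 12 belonged to the 33 complex I genes, whereas 6 of 13 complex V promoters held the NRF1 core and 1 of 13 complex IV promoters did. NRF1 and YY1 are transcription factors and GABP is an ETS factor, all known as regulators of respiratory genes. These shares describe the sequences and were not tested.

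Summed over all members on all UMIs, mesenchymal and epithelial cells stood at almost the same level, and immune cells stood well below both. The members made up 30530 CPM (30450 to 30610) in mesenchymal cells, 30610 (30510 to 30720) in epithelial cells, 24400 (23940 to 24860) in endothelial cells, 19500 (19380 to 19620) in immune cells and 13210 (12940 to 13480) in erythroid cells, where haemoglobin took 52.2% of the UMIs. Single cells spread widely within a class: the interquartile range of the members' share of UMIs was 2.57% to 3.42% in mesenchymal, 2.43% to 3.53% in epithelial and 1.32% to 2.23% in immune cells. The near-equality of mesenchymal and epithelial cells depends on the totals. With genes above 1% left out, the log2 of the summed level in epithelial over mesenchymal cells went from 0.00 to 0.30 (0.29 to 0.31). In immune over mesenchymal cells it went from -0.65 to -0.49. Fewer mitochondria and less RNA per mitochondrion cannot be told apart in such sums. Depth moved along with the classes, at a median of 7008 UMIs in mesenchymal, 9307 in epithelial and 2863 in immune cells, and its part in the difference was not tested.

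**Figure D1:**
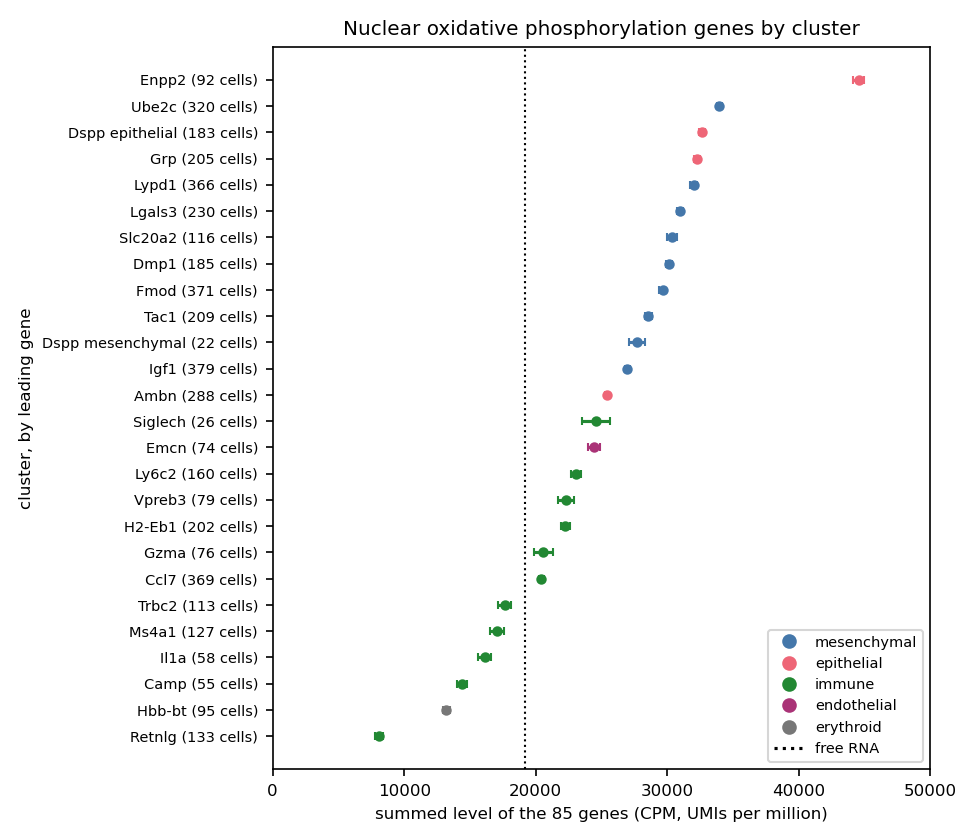
Summed level of the 85 members in each of the 26 clusters, in CPM with 95% counting intervals, coloured by class. The Enpp2 cluster of the epithelium stands highest at 44560 CPM and the Retnlg cluster of neutrophil-like cells lowest at 8068, while mesenchymal clusters lie between 26970 and 33970; the dotted line marks free RNA at 19220. Levels are on all UMIs, and the places of the Ambn, Grp and Dspp epithelial clusters among epithelial cells turn when genes above 1% are left out.

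The order of the clusters ran across the classes. Within the epithelium, the level went from 25430 CPM (25280 to 25580) in the Ambn cluster to 44560 (44130 to 44990) in the Enpp2 cluster, a wider range than that of the 9 mesenchymal clusters, from 26970 (Igf1) to 33970 (Ube2c). The low place of the Ambn cluster holds on all UMIs alone: with genes above 1% left out of the totals, the log2 of its summed level against Grp went from -0.34 to 0.44, and against all other epithelial cells from -0.43 to 0.28. On all UMIs, Grp (32230, 32010 to 32460) and Dspp epithelial (32620, 32390 to 32840) were neighbours whose intervals overlapped. With genes above 1% left out, the log2 of Dspp epithelial against Grp went from 0.02 to 0.16 (0.15 to 0.17). Against all other epithelial cells Grp went from 0.10 to -0.34 and Dspp epithelial from 0.12 to -0.08. Immune clusters went from 8068 (7751 to 8395) in Retnlg neutrophil-like cells to 24580 (23530 to 25670) in the Siglech cluster of dendritic-like cells. Of the 77 members with at least 1000 UMIs, 55 had their highest level in the Enpp2 cluster and 57 their lowest in the Retnlg cluster. The Pearson correlation of a member's log2 level with the sum of all other members over the 26 clusters had a median of 0.86, a description of points that share libraries and depth. For 4 of the 77 it was under 0.5, namely Ndufb7 (0.14), Cox7a2l (0.44), Cox6b2 (0.47) and Ndufv3 (0.49).

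Between classes, the balance of the complexes was similar apart from complex II. Complex I took 31.3% of the members' UMIs in mesenchymal, 33.0% in epithelial and 29.7% in immune cells, and complex V took 31.0%, 28.2% and 29.9%. Complex IV held 26.3% in mesenchymal and 27.9% in immune cells, and complex III 9.98% and 10.9%. Complex II held 1.38% in mesenchymal and 1.55% in immune cells but 3.13% in epithelial cells. The epithelial share differed by cluster, with 4.93% in Ambn and 3.53% in Dspp epithelial, against 1.20% in Grp and 1.34% in Enpp2. The most counted member of each complex was Ndufa4 in complex I (924.9 CPM over all cells), Sdhb in complex II (335.6), Uqcrh in complex III (581.4), Cox8a in complex IV (1359) and Atp5g2 in complex V (1276).

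Epithelial cells were set against mesenchymal cells first, the 2 layers that the dissection kept. A gene was counted as higher or lower at a ratio of at least 1.5-fold, provided that it had 30 UMIs over both sides. Of 80 measured members, 4 were higher and 8 lower in epithelium, where 15.6% of all 12920 measured genes were higher and 33.8% lower. The median log2 ratio was -0.17 for members and -0.29 for all genes. Enamel matrix genes take a large part of the epithelial UMIs, and 5 genes held more than 1% of the UMIs on either side. With these left out of the totals, the median of all genes moved to 0.01 and that of the members to 0.12, and 11 members were higher and 4 lower (background 22.3% and 23%). At 2-fold on all UMIs, 2 were higher and 2 lower (background 10.5% and 20.1%). On either total, then, most members differed less than 1.5-fold between the layers, and members called lower were fewer than among all genes.

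Sdhb was the exception with the largest ratio. Its 2941 UMIs gave 163.6 CPM in mesenchymal cells and its 7929 UMIs gave 781.7 CPM in epithelial cells, a log2 ratio of 2.26 (2.20 to 2.32), or 2.55 on the reduced totals. The other subunits of the same enzyme went the other way or stayed close: Sdhd had 114.8 CPM in mesenchyme and 61.52 in epithelium (log2 ratio -0.90, -1.03 to -0.77), Sdha 73.15 and 54.72 (-0.42, -0.56 to -0.27), and Sdhc 71.15 and 59.25 (-0.26, -0.41 to -0.12). On the reduced totals Sdhd stood at -0.60, Sdha at -0.12 and Sdhc at 0.03, so that the sign for Sdhc depends on the totals.

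In complex I the accessory subunit gene Ndufa1 led, with 290 CPM in mesenchymal and 893.6 CPM in epithelial cells (log2 ratio 1.62, 1.57 to 1.67). Ndufb2, another accessory subunit, had 261.9 and 426.1 CPM (0.70, 0.64 to 0.76). A near-identical copy of its 3′ end is a row of the matrix, so its level is uncertain here and below. At the low end were Ndufv1, which encodes the subunit that binds NADH (84 and 52.55 CPM, -0.68, -0.82 to -0.53), and Ndufa4l2 with 30 and 9 UMIs (-0.91, -2.17 to 0.20), an interval that spans 0. Ndufs1, a core iron-sulphur subunit, was nearly level at 31.82 and 30.76 CPM.

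None of the 8 complex III members reached 1.5-fold on all UMIs. The highest were the small subunits Uqcr11, with 506.8 CPM in mesenchyme and 748.5 in epithelium (log2 ratio 0.56), and Uqcrq (472.7 and 651 CPM, 0.46). Lowest were the core protein Uqcrc1 (146.5 and 106.7 CPM, -0.46) and the Rieske protein Uqcrfs1 (142.1 and 111.7 CPM, -0.35). Uqcrh, the hinge protein, had 651.7 and 549.6 CPM.

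Among complex IV members, only the 2 alternative isoforms Cox4i2 and Cox6b2 passed 1.5-fold, both lower in epithelium. Cox4i2 had 242.4 CPM in mesenchymal and 70.29 CPM in epithelial cells (log2 ratio -1.79, -1.90 to -1.67), and Cox6b2 had 92.73 and 35.20 CPM (-1.40, -1.57 to -1.23). At the other end, Cox5a reached 470.3 and 593.8 CPM (0.34) and Cox7a2 636.6 and 709.6 CPM (0.16). Cox5b had 502.9 and 492.5 CPM, and Cox8a 1471 and 1393.

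Complex V held 1 higher member, Atp5j2 (subunit f), at 593.2 CPM in mesenchyme and 961.4 in epithelium (log2 ratio 0.70, 0.66 to 0.74). Lower were Atp5s (13.96 and 8.972 CPM, -0.64) and Atp5g2 (1603 and 1035 CPM, -0.63, -0.66 to -0.60), which encodes 1 of 3 precursors of the same c-ring subunit. Its paralogue Atp5g1 was at 694.3 and 753.9 CPM (0.12). The catalytic core subunits Atp5a1 (345.3 and 243.6 CPM) and Atp5b (379.8 and 275.2 CPM) were lower in epithelium by less than 1.5-fold.

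**Figure D2:**
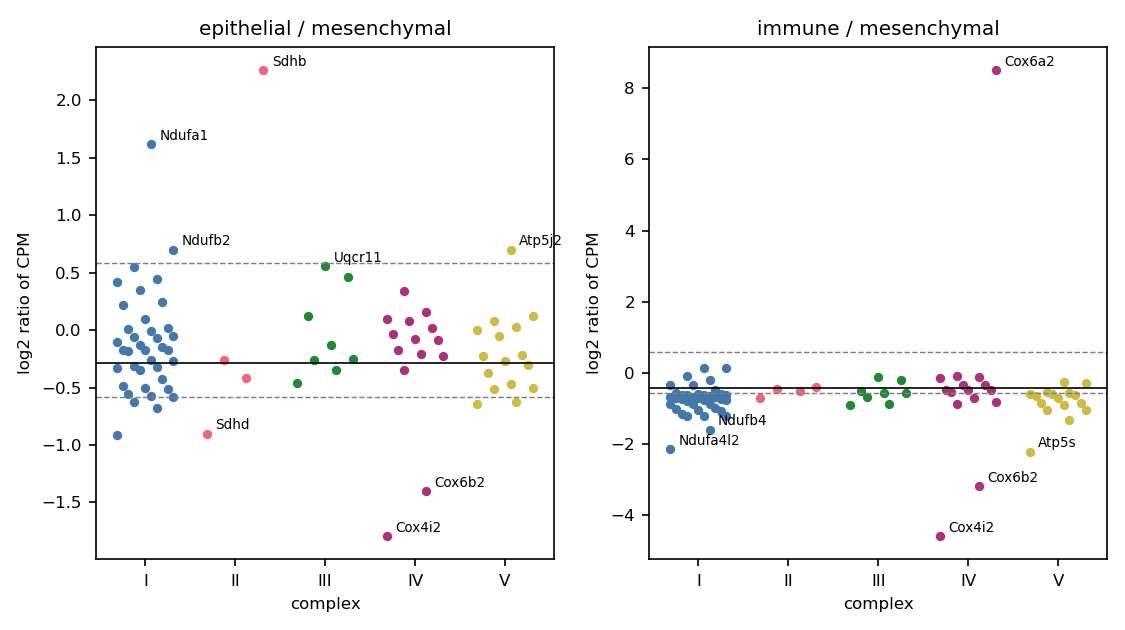
Log2 ratio of CPM for each measured member, by complex, in epithelial over mesenchymal cells (left) and immune over mesenchymal cells (right); dashed lines mark 1.5-fold and the solid line is the median of all measured genes, at -0.29 and -0.44. Sdhb and Ndufa1 stand above all other members in the left panel, and in the right panel most members lie below the solid line while Cox6a2 stands alone at 8.51.

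Genes that work with the chain showed no common direction between the layers, where 15.6% of all genes were higher and 33.8% lower in epithelium. Of 45 assembly factors 2 were higher and 10 lower in epithelium. Of 14 genes of cytochromes c and c1 and coenzyme Q the counts were 0 and 2, and of 18 genes of pyruvate entry and the citric acid cycle 1 and 3. The list of 14 includes Cyc1 (cytochrome c1), a complex III subunit that the symbol rule leaves out. Citrate synthase (Cs, log2 ratio 0.74) and the succinyl-CoA ligase subunit Suclg2 (-0.97) marked both ends of the citric acid cycle list. Of 14 measured regulators of mitochondrial genes 4 were higher, led by the coactivator Ppargc1a (1.53) and by Myc (1.26), and 2 lower. Glycolysis had 1 higher and 8 lower genes of 21, the latter near the background share, with the lactate carrier Slc16a3 at -2.84 and hexokinase Hk2 at 1.85. The hypoxia list had 3 higher and 2 lower of 14, with Ndrg1 at 3.21. Genes of the dissociation response moved with this comparison too: 6 of 14 were higher in epithelium and none lower, and the list summed to 2054 CPM there and 1635 CPM in mesenchyme; their part in the result was not tested.

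Within the epithelium, the Ambn cluster (288 ameloblast-like cells, with 5 of 8 ameloblast markers raised) was set against the Grp cluster (205 cells, unnamed; 2 raised markers of proliferative dental epithelium, Sfrp5 among its leading genes). Of 78 measured members 6 were higher and 46 lower in the Ambn cluster, with 12.1% and 60.5% of 9612 measured genes as background. Ameloblast markers made up 402400 CPM of the Ambn cluster. With the 7 genes above 1% left out of the totals, 19 members were higher and 9 lower (background 26.9% and 32.1%), and the median went from -0.71 to 0.08 for members and from -0.87 to -0.08 for all genes. The shares of higher and lower members thus turn over with the totals, and only differences among members are described further.

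Complex II split within itself. Sdhb had 301 UMIs (121.4 CPM) in the Grp cluster and 4952 UMIs (1169 CPM) in the Ambn cluster, a log2 ratio of 3.27 (3.10 to 3.44). Sdhd had 94.38 and 27.16 CPM in the same clusters (-1.80, -2.13 to -1.47), and Sdha (-1.57) and Sdhc (-1.56) were lower to a like degree. On the reduced totals Sdhb was at 4.05 and Sdhd at -1.01, so both directions stood on either total. The difference was also seen cell by cell: after each cell was thinned to 2000 UMIs, Sdhb was detected in 246 of 279 Ambn cells (88.2%, 83.8 to 91.7; 98.6% before thinning) and in 42 of 179 Grp cells (23.5%, 17.5 to 30.4; 54.1% before thinning). The latter share was close to that of mesenchymal cells, 24.0% (22.1 to 25.9).

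Ndufa1 had the next largest ratio, with 255.7 CPM in the Grp cluster and 1407 in the Ambn cluster (log2 ratio 2.46, 2.34 to 2.58). Ndufb2 (225.9 and 439.9 CPM, 0.96) and Cox4i2 (34.69 and 95.64 CPM, 1.46, 1.12 to 1.82) were also higher. The lowest ratios besides Sdhd were those of the complex I subunit Ndufa10 (98.82 and 31.64 CPM, -1.64) and of Cox6b2 (73.41 and 23.61 CPM, -1.64). Neither Sdhb nor Ndufa1 overlaps an exon of another annotated gene, and neither has a near-identical copy of its 3′ end in the annotation.

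The Dspp epithelial cluster (183 cells, unnamed; leading genes Dspp, Tgfb3 and Plxnc1) shared this pattern in part. Against the Grp cluster 7 members were higher and 16 lower (background 16.7% and 41.1% of 9423 genes), or 10 and 7 on the reduced totals (19.8% and 35.3%). Sdhb stood at 995 CPM (log2 ratio 3.03, 2.86 to 3.21), Ndufa1 at 786.3 CPM (1.62), Ndufb2 at 604 CPM (1.42) and Atp5j2 at 1468 CPM against 669.1 (1.13). Among the lowest were Cox6b2 (17.59 against 73.41 CPM, -2.06) and Atp5s (14 and 33 UMIs, -1.25, -2.27 to -0.31). Unlike in the Ambn cluster, Cox4i2 was not higher (27.18 CPM). The Dspp epithelial and Ambn comparisons share the Grp cells. Against all other epithelial cells the Ambn cluster had 3 members higher and 46 lower (background 6.49% and 61.2% of 10565 genes), with 17 lower at 2-fold (40.3%), or 12 and 7 on the reduced totals (19.5% and 29%).

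**Figure D3:**
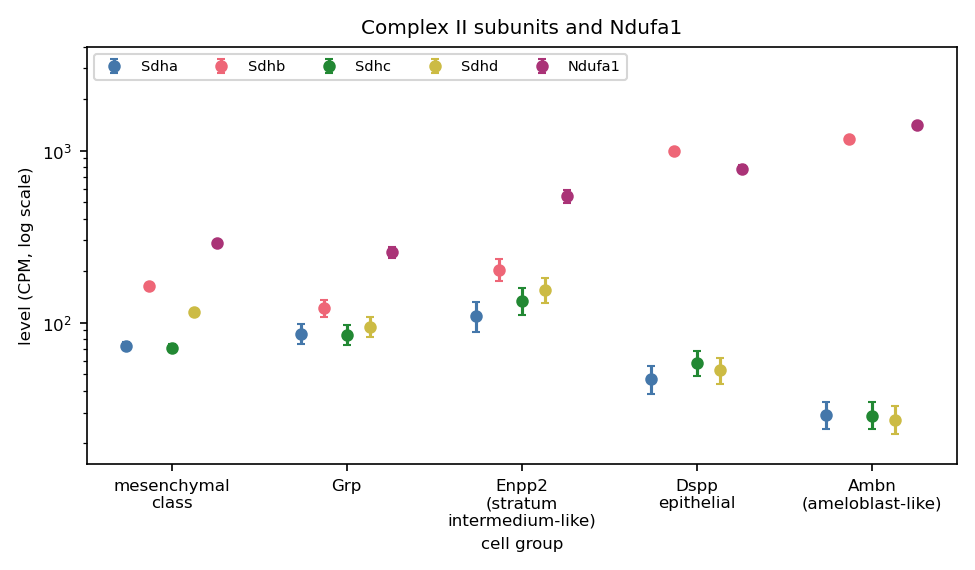
Levels of the 4 complex II subunits and Ndufa1 (CPM, log scale, with 95% counting intervals) in mesenchymal cells and the 4 epithelial clusters. The 4 complex II genes lie within 71.15 to 163.6 CPM in mesenchymal cells, while in the Ambn cluster Sdhb is at 1169 CPM and the other 3 lie between 27.16 and 29.05 CPM.

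In the Enpp2 cluster nearly the whole set stood higher than in the rest of the epithelium. These 92 cells (median 6766 UMIs) had 4 of 6 stratum intermedium markers raised and were led by Enpp2, Alpl, Tnc and Notch2. The interquartile range of the members' share was 3.25% to 5.85% of UMIs, against 2.14% to 2.76% in the Ambn cluster. Of 78 measured members, 58 were higher and 2 lower than in all other epithelial cells, with a background of 38.5% and 13.1% of 10565 genes. The median was 0.88 for members and 0.41 for all genes. On the reduced totals, 38 were higher and 2 lower (background 21.5% and 19.8%), with medians of 0.57 and 0.09. At 2-fold on all UMIs, 26 were higher (background 17.8%).

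All complexes took part: 27 of 37 measured complex I members were higher, 3 of 4 of complex II, 7 of 8 of complex III, 9 of 13 of complex IV and 12 of 16 of complex V. These counts are on all UMIs, where 38.5% of all genes were higher. The highest were Sdhd (154.2 against 52.19 CPM, log2 ratio 1.56, 1.28 to 1.83), Uqcrc1 (253.4 against 91.91 CPM, 1.46, 1.25 to 1.67) and Cox4i2 (166 against 60.66 CPM, 1.45, 1.19 to 1.71). Close to them were Ndufs1 (72.23 against 26.59 CPM, 1.44, 1.03 to 1.84) and the c-ring gene Atp5g3 (1.38). The 2 lower members were again Sdhb (201.6 against 840.1 CPM, -2.06, -2.28 to -1.85) and Ndufa1 (542.3 against 929 CPM, -0.78, -0.91 to -0.65), and the next was Atp5j2 (-0.25). Set against Grp, which is part of the other epithelium, the Enpp2 cluster had more Sdhb (201.6 against 121.4 CPM) and more Ndufa1 (542.3 against 255.7 CPM).

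Counts for lists outside the set are read against the same background, 38.5% higher and 13.1% lower on all UMIs. Of 18 citric acid cycle genes 10 were higher and none lower, led by Dlst (log2 ratio 1.71) and Idh3b (1.57), and 9 were higher on the reduced totals. Glycolysis had 11 higher and 1 lower of 19, with the phosphofructokinase Pfkp at 3.39. Of 13 measured regulators 7 were higher and 1 lower; Ppargc1a, the coactivator of mitochondrial biogenesis, stood at 4.76, Ppargc1b at 2.02 and the nuclear receptor Esrra at 1.36. The hypoxia factor Epas1 had 6.68. Of 44 assembly factors 17 were higher and 2 lower, a share of higher genes at the background, and 6 and 4 on the reduced totals, below the background of 21.5%. Genes of the dissociation response were not raised (0 higher, 3 lower of 14).

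Mesenchymal clusters differed little in the summed level but much in a few isoforms. The Igf1 cluster (379 dental follicle-like cells, 5 of 6 follicle markers raised) had 2 members higher and 13 lower of 80 against the other mesenchymal cells, with a background of 26.2% and 18.1% of 12058 genes. The 13 lower members are a share near the background, while the median was -0.25 for members and 0.09 for all genes. At 2-fold 2 were lower (background 10.1%). Perivascular markers moved with this cluster, at 534.1 CPM against 119.5 in the mesenchymal class, and their part in the result was not tested. Cox4i2 was lowest (33.68 against 279.3 CPM, log2 ratio -3.05, -3.37 to -2.75), then Cox6b2 (39.98 against 102.1 CPM, -1.35) and the complex I subunit Ndufb4 (164 against 305.5 CPM, -0.90). The 2 higher members, Ndufa4l2 (9 and 21 UMIs, 1.28, -0.03 to 2.46) and Cox7a1 (14 and 37 UMIs, 1.10, 0.10 to 2.02), rest on few counts, and next came Ndufv3 (214 against 144.1 CPM, 0.57).

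Cycling cells of the Ube2c cluster (320 cells, median 10193 UMIs; led by Ube2c, Mki67 and Cdk1) had the highest mesenchymal level. Only 1 member was higher and 3 were lower at 1.5-fold (background 13.4% and 22% of 12058), yet the median was 0.22 against -0.06 for all genes. The largest positive ratios were Cox6b2 (140.4 against 80.92 CPM, 0.80, 0.64 to 0.95), Cox5a (638.7 against 428.6 CPM, 0.58) and Uqcr10 (781.4 against 541.3 CPM, 0.53). The lowest were Cox7a1 (1 and 50 UMIs, -3.63, -8.96 to -1.09), Ndufa4l2 (1 and 29 UMIs, -2.84, -8.20 to -0.25) and Cox4i2 (128.9 against 270.5 CPM, -1.07, -1.21 to -0.93).

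In the Dmp1 cluster (185 odontoblast-like cells, 7 of 8 odontoblast markers raised) 4 members were higher and 3 lower (background 15% and 33.2% of 12058). Higher were Cox7a1 (15 and 36 UMIs, log2 ratio 1.60, 0.62 to 2.50), Cox4i2 (569.8 against 197.2 CPM, 1.53, 1.43 to 1.63), Ndufa1 (462.8 against 266.2 CPM, 0.80, 0.70 to 0.90) and Ndufb4 (429.8 against 264.2 CPM, 0.70). Lower were Cox6b2 (26.63 against 101.8 CPM, -1.94, -2.34 to -1.56), Sdha (48.21 against 76.59 CPM, -0.67) and Ndufa5 (185.5 against 283.9 CPM, -0.61). Of the hypoxia list 6 of 14 were higher and 2 lower, led by the prolyl hydroxylase P4ha2 (3.07), Ndrg1 (2.77) and P4ha1 (1.67); prolyl 4-hydroxylases also serve collagen, which odontoblasts secrete. The dissociation list was raised here (9 of 14 higher, 2787 CPM), and its part in the result was not tested.

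Cox4i2, which replaces Cox4i1 in complex IV and is best known from lung, ranged widely among the clusters. It lies on chromosome 2 (chr2:152754173-152765037, plus strand). Of all Cox4 UMIs, Cox4i2 took 27.9% (27.2 to 28.6) in mesenchymal cells, 11.2% (10.5 to 12.0) in epithelial and 2.20% (1.66 to 2.86) in immune cells. In the 74 endothelial cells it had 0 of 291 UMIs, which allows a share of up to 1.03%. Among mesenchymal clusters the share was highest in the 2 odontoblast-like clusters, Dmp1 (49.0%, 47.1 to 51.0) and the 22-cell Dspp mesenchymal cluster (47.1%, 41.3 to 53.0), whose intervals overlap. Slc20a2 followed (39.6%, 36.4 to 42.7), and Igf1 was lowest (5.38%, 4.35 to 6.56).

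**Figure D4:**
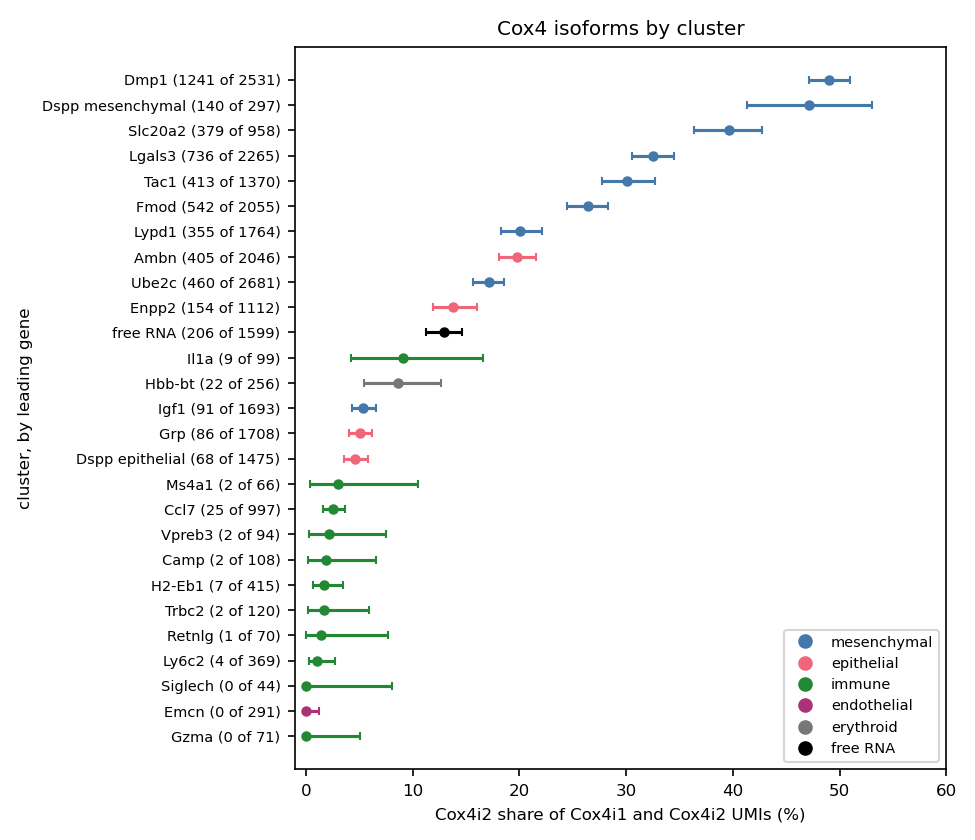
Share of Cox4i2 in the UMIs of Cox4i1 and Cox4i2 by cluster and in free RNA, with 95% exact intervals; numbers in brackets are Cox4i2 UMIs of all Cox4 UMIs. Odontoblast-like clusters lie at 49.0% and 47.1%, the other mesenchymal clusters between 5.38% and 39.6%, and free RNA at 12.9%.

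Free RNA held Cox4i2 at 12.9% (11.3 to 14.6), so shares in cells that should lack the gene give the background. In macrophage-like cells (Ccl7 cluster) it was 2.51% (1.63 to 3.68) and in B-cell-like cells (Ms4a1 cluster) 2 of 66 UMIs. At 2000 UMIs per cell, Cox4i2 was detected in 118 of 176 Dmp1 cells (67.0%, 59.6 to 73.9; 94.1% unthinned), 65 of 112 Slc20a2 cells (58.0%; 78.4% unthinned) and 20 of 354 Igf1 cells (5.65%, 3.48 to 8.59; 14.8% unthinned). Macrophage-like cells had it in 12 of 331 cells (3.63%, 1.89 to 6.25; 5.96% unthinned; median 4959 UMIs) and B-cell-like cells in 0 of 25 (up to 12%; 1.57% unthinned; median 1587 UMIs). At the thinned depth the interval of Igf1 cells overlaps that of macrophage-like cells. By share of Cox4 UMIs, Igf1 cells (5.38%, 4.35 to 6.56) lay above macrophage-like cells (2.51%, 1.63 to 3.68) and below free RNA (12.9%). Since these measures differ, the Igf1 level is not read as expression. The thinned intervals of Ambn cells (15.4%, 11.4 to 20.2, and 50.3% unthinned) and Enpp2 cells (14.8%, 7.90 to 24.4, and 38.0% unthinned) lie above that of macrophage-like cells. Mesenchymal markers summed to 360.1 CPM in the Ambn cluster and 346.9 in Grp. The part of free mesenchymal RNA in the Cox4i2 of epithelial cells was not tested.

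Cox6b2, an isoform known from testis, had another distribution (chr7:4751792-4753094, minus strand). Its share of Cox6b UMIs was 11.3% (10.8 to 11.8) in mesenchymal, 4.32% (3.89 to 4.78) in epithelial and 1.73% (1.30 to 2.25) in immune cells, and 5.73% in free RNA. Among mesenchymal clusters it was highest in the Tac1 (17.2%, 15.2 to 19.4), Ube2c (15.3%, 14.1 to 16.6) and Lypd1 clusters (15.2%, 13.6 to 16.8), which do not differ beyond their intervals. In the Dmp1 cluster, where Cox4i2 peaked, it took 3.58% (2.73 to 4.60). Erythroid cells had 16.0% (44 of 275 UMIs, 11.9 to 20.9). Within the epithelium Grp led with 7.76% (6.71 to 8.92), above Ambn at 3.59%, Enpp2 at 2.71% and Dspp epithelial at 2.21%. Mature B-cell-like cells had 0 of 108 UMIs, which allows up to 2.78%, and macrophage-like cells 1.32% (0.77 to 2.10). At the thinned depth 29.2% of Ube2c cells (24.2 to 34.6; 69.7% unthinned) and 15.6% of Grp cells (10.7 to 21.8; 41.5% unthinned) had a UMI, against 1.51% of macrophage-like cells (4.34% unthinned).

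Cox6a2, the heart and muscle isoform of Cox6a (chr7:128205435-128206387, minus strand), came mostly from 1 small cluster. The Siglech cluster (26 dendritic-like cells) held 170 of the 221 Cox6a2 UMIs, which was 2044 CPM and 92.4% (87.6 to 95.8) of its Cox6a UMIs. At the thinned depth 21 of 23 cells had a UMI (91.3%, 72.0 to 98.9; 88.5% of all 26 unthinned), against 1 of 25 B-cell-like cells (2.36% unthinned) and 0.604% of macrophage-like cells (1.63% unthinned). Elsewhere the share was 14.9% (10 of 67 UMIs) in the Vpreb3 cluster, 13.9% (19 of 137) in Ly6c2 and 0 of 791 in Ambn, which allows up to 0.379%. The 19 UMIs of Ly6c2 came from only 2 cells (1.25% unthinned), and the 10 of Vpreb3 from 8 cells (10.1% unthinned). Free RNA held 1.88%. All 6 skeletal muscle markers were at 0 among the 83187 UMIs of the Siglech cluster. The part of muscle RNA in its Cox6a2 was not tested. An exon of Itgad lies on the opposite strand at this locus. Against the other immune cells 13 of 78 measured members were higher and 5 lower here (background 27.8% and 15.7%). Cox6a2 stood at 7.84 (2044 against 8.919 CPM, 7.37 to 8.34), followed by Ndufb10 (1.17) and Ndufv2 (1.11), and Cox7a2l at -1.78.

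Other tissue-specific isoforms were scarce. Ndufa4l2, known as a hypoxia target, had 41 UMIs in all, 12 of them in the Dspp mesenchymal cluster (43.38 CPM, 6.32% of the Ndufa4 pair, 3.31 to 10.8), and it overlaps an exon of Shmt2 on the opposite strand. Free RNA held it at 0.955%, a larger share than in every cluster but that one. Cox7a1 had 90 UMIs and at most 0.802% of the Cox7a group (Dmp1), so Cox7a2 and Cox7a2l made up the rest. Cox8a had all but 3 of the Cox8 UMIs, and Cox7b all but 5 of the Cox7b pair.

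The 3 c-ring genes encode the same mature protein and differ in their import sequences. Atp5g2 took 59.5% of their UMIs in mesenchymal and 58.0% (56.8 to 59.2) in immune cells, but 49.4% (48.7 to 50.1) in epithelial cells, where Atp5g1 had 36.0% against 25.8% in mesenchymal cells. Atp5g1 was highest in the Dspp epithelial (43.0%, 41.7 to 44.4), Ambn (41.9%, 40.7 to 43.2) and Dmp1 clusters (36.5%, 35.2 to 37.7), and 27.4% in Grp. The Dspp epithelial, Ambn and Dmp1 clusters thus had a larger Atp5g1 share than Grp and Ube2c (25.1%), where cycling markers summed to 1191 and 2330 CPM. A low share was not particular to these cycling clusters. It was 20.5% in Fmod, 22.1% in Slc20a2, 23.5% in Lypd1, 24.7% in Lgals3 and 24.8% in Tac1. The Igf1 and Dspp mesenchymal clusters had more, 26.8% and 34.0%.

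Against mesenchymal cells, immune cells had 51 of 81 measured members lower and 1 higher, where 44.9% of all 13160 measured genes were lower and 24.2% higher. The median log2 ratio was -0.65 for members and -0.44 for all genes. With the 10 genes above 1% left out, 29 were lower and 1 higher (background 39.9% and 26.7%), with medians of -0.50 and -0.29. At 2-fold on all UMIs 15 were lower (background 32.6%). The share of members called lower, 51 of 81, therefore lies above the background on all UMIs and that of 29 of 81 below it on the reduced totals, while the median of the members stayed about as far below that of all genes. Dissociation genes moved strongly with this comparison, with 14 of 14 higher in immune cells, a median of 3.02 and a sum of 12280 against 1635 CPM. Their part in the result was not tested.

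On all UMIs, where 44.9% of all genes were lower, complex I had 30 of 38 members lower (median -0.71) and complex V 12 of 16 (-0.68). Complex IV had 5 of 15 lower (-0.49), complex III 3 of 8 (-0.58) and complex II 1 of 4 (-0.48), shares below that background. Such counts depend on the totals, since 29 of 81 members were lower on the reduced totals (background 39.9%). Ndufb4 was the lowest well-counted complex I member (284.3 CPM in mesenchymal, 93.97 in immune cells, log2 ratio -1.60, -1.73 to -1.46), below it Ndufa4l2 with 30 and 2 UMIs (-2.16, -5.27 to -0.18). At the upper end Ndufb7 (184.3 and 201.6 CPM, 0.13) and Ndufv3 (154.6 and 167.8 CPM, 0.12) were close to level. In complex V, Atp5s (13.96 and 2.989 CPM, -2.22) and the stalk subunit Atp5o (305.8 and 120.5 CPM, -1.34, -1.46 to -1.23) were lowest, and Atp5l (901.6 and 754.6 CPM, -0.26) and Atp5f1 (366.5 and 297.1 CPM, -0.30) highest. Atp5o and Atp5l have a near-identical copy of their 3′ end in the matrix, so their levels are uncertain.

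For complex III, the core proteins Uqcrc1 (146.5 and 77.72 CPM, log2 ratio -0.91) and Uqcrc2 (120.8 and 65.20 CPM, -0.89) were lowest, while Uqcrfs1 was almost level (142.1 and 131.2 CPM, -0.12, -0.24 to 0.01). Complex II ran from Sdhc (71.15 and 43.90 CPM, -0.70) to Sdhd (114.8 and 86.31 CPM, -0.41). In complex IV the isoforms were at both ends, Cox4i2 at -4.59 (242.4 and 10.09 CPM, -5.00 to -4.20) and Cox6b2 at -3.20 (92.73 and 10.09 CPM, -3.62 to -2.81), against Cox6a2 at 8.51 (2 and 217 UMIs, 6.64 to 11.56). Cox7a2l was level at 217.6 and 204.6 CPM (-0.09). Both low levels of 10.09 CPM lie below the free RNA levels of 71.5 CPM (Cox4i2) and 29.15 CPM (Cox6b2).

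Related lists are set against the same background, 24.2% of all genes higher and 44.9% lower in immune cells. Of 18 citric acid cycle genes 8 were lower, a share near the background, and none higher, and of 45 assembly factors 24 were lower and 1 higher. Glycolysis had 7 higher, not far from the background share, and 5 lower of 22, with hexokinase Hk3 at 9.30 and Slc16a3 at 4.63 against lactate dehydrogenase Ldhb at -3.52. Of 14 measured regulators 2 were higher and 3 lower, with Ppargc1a at -1.29 and Myc at 1.21. The Ppargc1a ratio rests on few immune UMIs, 1 in the Siglech cluster and 4 in the other immune cells. That of Hk3 rests on few mesenchymal UMIs.

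Neutrophil-like cells of the Retnlg cluster (133 cells, 7 of 8 neutrophil markers raised, median 2026 UMIs) had the lowest level of all. Against the other immune cells 0 of 78 members were higher and 68 lower (background 12.9% and 54.2% of 9145 genes), and 0 were higher and 55 lower on the reduced totals (background 19.7% and 40.5%). The median was -1.62 for members and -0.74 for all genes, or -1.10 and -0.22 on the reduced totals. All 8 members of complex III, all 14 of complex IV, 13 of 15 of complex V, 31 of 37 of complex I and 2 of 4 of complex II were lower. Ndufs3, a core subunit, had 0 UMIs where the other immune cells had 371 (73.45 CPM), which makes it at least 7.38-fold lower at the floor of 3 counts in the cluster. Ndufc2 had 16.59 against 219.8 CPM (log2 ratio -3.73, -5.35 to -2.50), and Cox6a2 had none of the 217 UMIs, most of which came from the Siglech cluster. Nearest to level were Ndufa8 (-0.19, -0.74 to 0.32), Ndufb11 (-0.23) and Ndufb6 (-0.29), which turn to 0.33, 0.29 and 0.23 on the reduced totals.

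The neighbouring pathways did not all follow. List counts here are on all UMIs, where 12.9% of all genes were higher and 54.2% lower in the Retnlg cluster. There 14 of 18 citric acid cycle genes were lower, led by Suclg1 (log2 ratio -3.86). By contrast, 10 of 20 glycolysis genes were higher and 3 lower, led by Slc16a3 (4.41) and the glucose carrier Slc2a3 (4.02). The 13 mitochondrial genes had a median of 0.0, or 0.51 on the reduced totals. Of the dissociation list 10 were lower and 1 higher.

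Camp cells, neutrophil-like cells with 8 of 8 neutrophil markers raised and leading granule genes (55 cells, median 6266 UMIs), held 14370 CPM (14000 to 14750). Here 3 members were higher and 36 lower (background 7.92% and 61.3% of 9145 genes), but 23 were higher and 7 lower on the reduced totals (22.9% and 32.2%), since 13 genes held more than 1%. The members' median went from -0.56 to 0.28 and that of all genes from -0.91 to -0.07, so the members' median lay above that of all genes on both. At 2-fold on all UMIs 17 were lower (background 46.6%). Cox7a2l (57.86 against 216.3 CPM, log2 ratio -1.90, -2.57 to -1.31) and Ndufs3 (17.61 against 73.46 CPM, -2.06) were low on both totals. Ndufb7 (347.2 against 189.9 CPM, 0.87, 0.60 to 1.13) and Ndufv3 (249 against 161.2 CPM, 0.63) were higher on both, and Cox6b2 had 8 and 46 UMIs (1.12, -0.18 to 2.21). The Camp and Retnlg comparisons share most of their reference cells.

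Nuclear members and the 13 protein genes of mitochondrial DNA did not move together over all clusters. Mitochondrial UMIs were 2.23 times the members' UMIs in mesenchymal, 1.82 times in epithelial, 2.76 times in endothelial and 4.67 times in immune cells. The ratio was highest in the Retnlg cluster (10.7) and in B-cell-like cells (7.52) and lowest in the Dspp epithelial cluster (1.56). Since the cell filter cuts the mitochondrial share at 20%, these ratios depend on the filter. Over 26 clusters the Pearson correlation of the 2 log2 levels was -0.21, and over the 13 mesenchymal and epithelial clusters it was 0.42; the clusters share libraries and totals, and these values are descriptions.

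**Figure D5:**
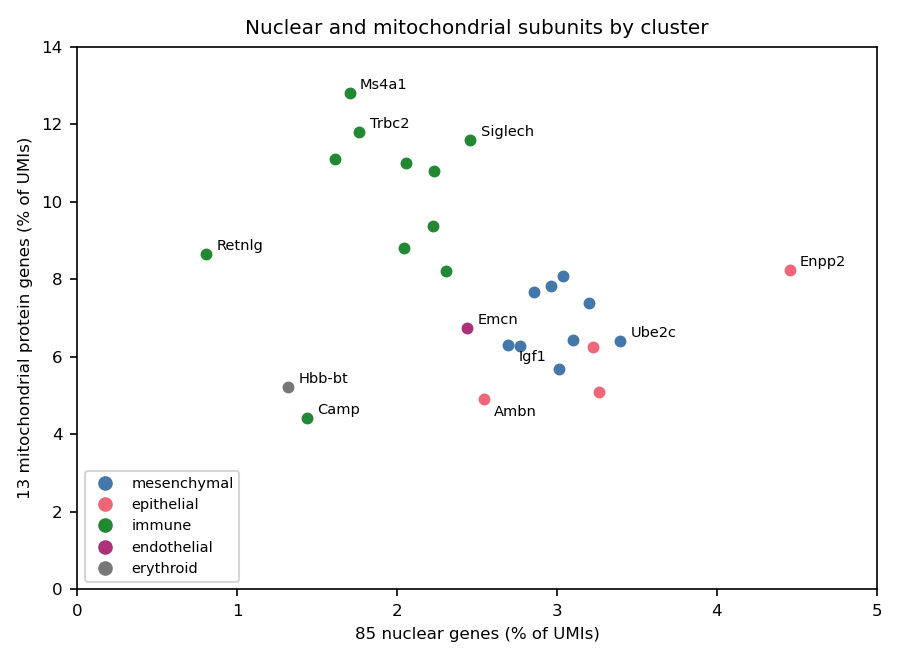
Percent of UMIs from the 85 nuclear members (x axis) and from the 13 mitochondrial protein genes (y axis) in each cluster, coloured by class. Retnlg neutrophil-like cells join the lowest nuclear share with 8.65% mitochondrial UMIs, while the Enpp2 cluster has the highest nuclear share with 8.24%.

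In each complex with subunits from both genomes, the ratio was lowest in epithelial, then mesenchymal, then immune cells among these 3 classes. Endothelial cells lay above mesenchymal cells in complexes I (1.52), IV (5.03) and V (2.40) and below them in complex III (2.61). In complex IV the ratio of mitochondrial to nuclear UMIs was 3.01 in epithelial, 3.53 in mesenchymal and 8.11 in immune cells, in complex III 2.14, 2.83 and 4.34, in complex V 1.74, 1.87 and 3.77, and in complex I 1.07, 1.39 and 2.70. In Retnlg cells the ratio reached 17.5 for complex IV and 7.11 for complex I. In the Enpp2 cluster, where the members stood highest, 12 of 13 mitochondrial genes were higher at 1.5-fold than in other epithelial cells (background 38.5%). On the reduced totals 1 of 13 was higher (background 21.5%). The cluster's ratio of 1.85 was close to that of the epithelium as a whole.

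Position offered little order: the members lie on 19 chromosomes, and all 85 were found in GENCODE M21. Exons of another gene overlap 6 members on the same strand and 27 on the opposite strand, and 25 have a near-identical copy of their 3′ end elsewhere in the annotation (at least 97% identity over 90 bases or more of the last 300). For 6 of these (Cox5b, Ndufb2, Ndufab1, Atp5l, Atp5o and Ndufb8) the copy is itself a row of the matrix, so reads could be split between the 2 and their levels are uncertain. Sdhb, Ndufa1 (chrX:37187588-37191163, minus strand), Cox4i2 and Cox6b2 have neither an overlap nor a copy.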

How the data were processed

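The deposited matrix held raw UMI counts per gene and barcode (6794880 barcodes, 68931830 UMIs); per the file headers it was written in format version 2 by software version 3.0.2, and per the submitters' processing notes the build was mm10, with R 3.4.1 and Seurat used by the authors. An aligner and its annotation were not given in the sources used here. No sample column was left unused (0).

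Cells were filtered as stated above; Scrublet scores above 0.15 marked 122 doublets (2.55%), since its automatic threshold called 1. Leiden clustering (resolution 1.0, and 0.5 within mesenchyme) used 2000 variable genes and 30 components (scanpy 1.11.5, leidenalg 0.10.2, scipy 1.17.1, numpy 2.4.6, pandas 2.3.3, Python 3.11.15). Clusters were named from at least 3 raised markers (2-fold, in 25% of cells). UMIs were summed per group. Levels carry exact Poisson intervals, ratios conditional binomial ones and shares Clopper-Pearson ones. A gene at 0 UMIs on 1 side was set at the bound of a floor of 3 counts. The alternatives changed the cell filters, clustering, totals, weights, free RNA and fold. The calls were tested on simulated data.

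The members follow from gene symbols alone, but this gene set, its rule and the lists were chosen with earlier results of these data known. Named members were the isoform groups, the 2 highest and 2 lowest per complex and class comparison, the most counted per complex, core subunits, and the 3 highest and 3 lowest per cluster comparison. Other genes of the lists were the largest ratios. Members named for their correlation over clusters were chosen after their values were seen. 1 member that this rule names is not reported here.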

Additional observations from a re-analysis of the deposited data

Results flagged for a closer look

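Signal from the members was also present in barcodes that entered no comparison. The 561 barcodes with at least 500 detected genes that were left out for a mitochondrial share above 20% held the members at 17360 CPM (17130 to 17590), below the 19220 CPM of free RNA and the 28100 CPM of the barcodes kept. Of the UMIs outside the mitochondrial genes, the members made up 2.44% in the barcodes left out and 3.01% in those kept. The result is listed because these barcodes entered no comparison and had counts of the members; there is no control sample, and a level above 0 by itself shows nothing about them. Whether these barcodes are damaged cells was not tested.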

How the results depend on the processing

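Without genes above 1% in the totals, the log2 of the summed level changed sign in Ambn against other epithelial cells (-0.43 to 0.28), Ambn against Grp (-0.34 to 0.44), Grp (0.10 to -0.34) and Dspp epithelial (0.12 to -0.08) against other epithelial cells, Camp against other immune cells (-0.47 to 0.37) and Dspp mesenchymal against other mesenchymal cells (-0.14 to 0.12). No paired analysis was possible because the study holds 1 sample with no replicates, and none could be left out in turn. The log2 of the summed level in epithelial over mesenchymal cells was 0.00 on all UMIs, -0.04 with at most 10% mitochondrial UMIs, 0.30 without genes above 1%, -0.01 without mitochondrial genes and 0.17 with equal cluster weights. In immune over mesenchymal cells it was -0.65, and -0.56 with at least 1000 genes per cell, -0.61 and -0.66 with mitochondrial limits of 10% and 40%, -0.64 without removal of doublets and haemoglobin, -0.49 without genes above 1%, -0.61 without mitochondrial genes, -0.68 with equal weights and -0.67 after subtraction of 5% free RNA. Epithelial members higher numbered 11 without genes above 1% and 2 at 2-fold; members lower numbered 14 at the 10% limit, 4 without genes above 1%, 3 with equal weights and 2 at 2-fold. Immune members lower numbered 29 and 15 without genes above 1% and at 2-fold. In the same order, counts were 38 and 26 (Enpp2, higher), 7 and 17 (Ambn against other epithelial cells, lower) and 7 and 17 (Camp, lower), and 2 at 2-fold in Igf1. Ratios of mitochondrial to nuclear UMIs in mesenchymal, epithelial and immune cells were 2.21, 1.81 and 4.07 with 1000 genes, 1.96, 1.68 and 3.29 at the 10% limit, 2.29, 1.89 and 5.51 at 40%, 2.3, 1.82 and 5.25 with equal weights, and 1.78, 1.37 and 4.08 after free RNA was subtracted. Without removal of doublets they were 1.84 (epithelial) and 4.48 (immune), and with Sdhaf genes counted 2.21 (mesenchymal) and 1.81 (epithelial). The Cox4i2 share in mesenchymal cells was 32.1% with equal weights. The cause of these shifts was not tested. The 68 lower members in Retnlg cells and the 1 higher member in immune cells stayed within 1.5 times. An alternative chosen after seeing the data, without members that share 3′ ends or exons with other genes, gave 3 higher and 7 lower in epithelium, and 1 and 46 in immune cells. Intervals cover counting error of 1 sample, so no value shows how animals vary. Free RNA sets a floor for scarce isoforms, and 690 cells under 2000 UMIs were left out of thinned shares.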
